A study of Mus musculus with 12 samples.

Results

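The peaks of microRNA (miRNA) and small nucleolar RNA (snoRNA) genes were described in chromatin immunoprecipitation sequencing (ChIP-seq) of microglia, the resident macrophages of the brain. The signals were Rpb2, a subunit of RNA polymerase II, and H3K27Ac, the acetylation of lysine 27 of histone H3 that marks active promoters and enhancers. A peak was a member when the gene the authors assigned to it was named Mir followed by a digit, Mirlet or Snor, and when its centre lay within 1000 bp of that gene's annotated start. By this rule, 117 of the 26706 Rpb2 peaks belonged to 100 genes, and 113 of the 55862 H3K27Ac peaks belonged to 111 genes. Of the 179 genes found for either signal, 153 were miRNA genes and 26 snoRNA genes. Only 32 genes had a member peak for both signals, 68 had one for Rpb2 alone and 79 for H3K27Ac alone.

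Microglia were sorted as CD11b+CD45lo cells from the brains of 2-mo-old mice on the C57BL/6J background. WT mice carried both functional copies of *Cx3cr1*, the fractalkine receptor gene, and in KO mice (*Cx3cr1* eGFP/eGFP) eGFP disrupted both copies. Each library was a pool of 3 mice of 1 sex, and the labels give each genotype a female and a male pool, so that every comparison set 2 pools against 2. All cells of a KO mouse lacked the receptor, whereas the libraries held sorted microglia only. Totals ran from 10395804 to 44332626 reads per library. The KO female Rpb2 library was the deepest, and peaks held 11.2% to 15.1% of the reads of the Rpb2 libraries. For H3K27Ac, peaks held 15.9% of the reads of the WT female library, whereas this share was 61.1% to 65.3% in the other 3. At the peaks of Y-linked genes, the library labelled WT female for Rpb2 held 136 reads and the KO female library held 0, so its reads went against its sex label, and it is called the library labelled WT female below. The Rpb2 peak at the *Cx3cr1* start held 481 and 505 CPM (normalised reads, scaled to the same total in the tested peaks of each library) in WT pools and 476 and 443 in KO pools, and it does not show whether the coding sequence was intact. Rpb2 peaks within 1000 bp of a start were found at 12 of 13 microglial markers, at 0 of 9 neuronal and at 0 of 5 astrocyte markers. They were also found at 1 of 6 oligodendrocyte markers (*Mbp*) and 2 of 4 endothelial and pericyte markers (*Kdr* and *Pecam1*). Of 8 monocyte, granulocyte and lymphocyte markers, 1 had such a peak (*Mir150*). For H3K27Ac, none of the 13 microglial markers had a peak centred within 1000 bp of its start. Such peaks were found at 3 of 6 oligodendrocyte, 1 of 4 endothelial and 1 of 8 blood cell markers. None was found at the 9 neuronal or 5 astrocyte markers. At any distance, all 13 microglial markers had an assigned peak. So did 5 oligodendrocyte, 4 endothelial, 4 blood cell, 4 neuronal and 3 astrocyte markers. Scaled to all reads in peaks, the 105 microglial peaks summed to 5863 to 8590 CPM per library. The 18 oligodendrocyte peaks summed to 322 to 356 CPM, and the 25 endothelial and pericyte peaks to 270 to 300 CPM. The sums of the other classes were lower.

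A miRNA is cut from a hairpin in a longer RNA polymerase II transcript by Drosha and Dicer, and the mature strand guides Argonaute proteins to mRNAs through its seed, bases 2 to 8. Most mammalian snoRNAs are trimmed from the introns of host genes, and they guide the methylation (box C/D) or pseudouridylation (box H/ACA) of ribosomal RNA. The annotated start of a miRNA or snoRNA gene is therefore the 5′ end of the small RNA or its hairpin, which is often not where transcription begins. Some small RNAs are exceptions. *Snord118* encodes the U8 snoRNA, which is needed for the maturation of ribosomal RNA and has a promoter of its own, and the hairpin of miR-484 is known to arise as a short capped transcript.

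The sequences under 5 Rpb2 peaks are given because they show how a peak can sit on the small RNA itself. They are printed 5′ to 3′ on the strand of the RNA from the RefSeq genome GRCm38.p6, with the bases of the RNA or hairpin in capitals. The *Snord118* peak lay at chr11:69073429-69073689 (+ strand) and held 134 of the 137 bases of U8, and its printed run begins 3 bases into the RNA. The *Snord104* peak at chr11:106500843-106501069 (+) held all 73 bases of this box C/D snoRNA. The *Mir484* peak at chr16:14159513-14159772 (+) held the whole hairpin of 67 bases, and the *Mirlet7i* peak at chr10:122985553-122985798 (− strand) the whole hairpin of 85 bases. The *Mir142* peak reached only 36 of the 64 bases of its hairpin, and its last 300 bp, chr11:87756600-87756899 (+), are shown.
Snord118 peak: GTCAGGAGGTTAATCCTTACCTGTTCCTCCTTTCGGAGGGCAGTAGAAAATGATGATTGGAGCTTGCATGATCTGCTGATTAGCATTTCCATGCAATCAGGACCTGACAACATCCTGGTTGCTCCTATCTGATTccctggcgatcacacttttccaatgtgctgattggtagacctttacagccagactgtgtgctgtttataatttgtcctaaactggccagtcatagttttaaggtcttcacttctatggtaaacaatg
Snord104 peak: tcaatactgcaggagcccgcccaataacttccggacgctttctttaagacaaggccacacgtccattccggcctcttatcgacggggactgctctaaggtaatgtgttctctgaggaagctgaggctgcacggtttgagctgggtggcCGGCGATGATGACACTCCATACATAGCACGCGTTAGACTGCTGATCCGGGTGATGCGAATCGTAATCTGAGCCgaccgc
Mir484 peak: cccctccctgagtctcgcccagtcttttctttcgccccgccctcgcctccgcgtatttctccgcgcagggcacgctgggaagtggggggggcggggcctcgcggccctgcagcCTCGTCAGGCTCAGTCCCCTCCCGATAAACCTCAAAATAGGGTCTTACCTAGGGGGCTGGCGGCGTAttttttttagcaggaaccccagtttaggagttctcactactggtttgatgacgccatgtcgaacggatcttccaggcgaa
Mirlet7i peak: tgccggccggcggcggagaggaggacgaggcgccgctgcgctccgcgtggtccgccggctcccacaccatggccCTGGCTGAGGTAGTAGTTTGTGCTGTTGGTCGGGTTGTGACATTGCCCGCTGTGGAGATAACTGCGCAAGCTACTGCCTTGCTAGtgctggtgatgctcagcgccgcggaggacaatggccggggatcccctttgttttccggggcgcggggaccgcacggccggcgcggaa
Mir142 peak: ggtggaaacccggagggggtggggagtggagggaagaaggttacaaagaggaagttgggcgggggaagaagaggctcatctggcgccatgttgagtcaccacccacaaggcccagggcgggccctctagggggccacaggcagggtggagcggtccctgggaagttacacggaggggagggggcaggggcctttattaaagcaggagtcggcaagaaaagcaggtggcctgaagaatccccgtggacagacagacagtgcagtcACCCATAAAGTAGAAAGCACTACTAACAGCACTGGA

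Within U8, the letters TGATGA of a C box began at base 51 of the printed run, and CTGA, the letters of a D box, began at bases 76, 104 and 129. Within the RNA of *Snord104*, TGATGA began at base 155 of its printed run and CTGA at bases 189 and 215. In addition, 5 motifs, none of which contains another, were searched on both strands of the 300 bp around the centre of each peak. TATAAA was present in 28.6% of the 21 snoRNA windows and 6.2% of the 96 miRNA windows under Rpb2 peaks. The 21 windows came from 17 genes. Among the windows of all Rpb2 peaks near a start, the share was 4.5%. GGGCGG was present in 9.5% of snoRNA and 36.5% of miRNA windows, against 62.7% of all. CCAAT was found in 29.1% of member windows and 29.8% of all windows. The classes differed, with CCAAT in 47.6% of the snoRNA windows and a share of the miRNA windows below that of all. GAGGAAGT, a sequence the macrophage factor PU.1 binds, was found in 2.6% of member windows and 4.1% of all, and the *Mir142* sequence above holds it. TGACGTCA, which CREB binds, was found in 0.9% of member windows and 2.9% of all. The median GC content was 45.0% for snoRNA and 58.0% for miRNA windows, 54.3% for the members together and 64.3% for all windows. For H3K27Ac peaks, the median was 53.0% for members and 62.0% for all, and GGGCGG was present in 26.5% of member windows and 54.1% of all. There, TATAAA was found in 10.6% of members against 5.3% of all, and CCAAT in 35.4% against 28.7%. The shares were 5.3% against 2.7% for GAGGAAGT and 2.7% against 2.1% for TGACGTCA. The rule that chose the members tends to leave out peaks at the start of a longer gene. Its part in these motif and GC values was not tested.

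Mature miRNA sequences from RefSeq were matched for 140 of the 153 miRNA genes. The 223 mature miRNAs carried 218 different seeds, and 3 seeds were shared by more than 1 member gene. The sequences below, with the seed in capitals, belong to genes whose values are described below or that share a seed with another member. The first 4 share the AGCAGCA seed of the miR-15/16 family, which is known to restrain the cell cycle.
miR-15a-5p: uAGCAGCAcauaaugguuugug
miR-16-5p: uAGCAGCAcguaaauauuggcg
miR-497a-5p: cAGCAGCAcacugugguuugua
miR-6353: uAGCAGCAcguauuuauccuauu
miR-142a-5p: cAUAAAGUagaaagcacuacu
miR-142a-3p: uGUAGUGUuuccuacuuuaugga
miR-142b: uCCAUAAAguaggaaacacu
let-7i-5p: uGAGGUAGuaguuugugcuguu
miR-484: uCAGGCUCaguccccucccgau
miR-5130: cUGGAGCGcgcgggcgaggcaggc
miR-5133: gCUGGAGCugcggcagcgcag
miR-7687-5p: aGGCGGGGaaccugaggcgcaggcu
miR-8116: aAGGAUCCggggcuaguuggc
miR-6993-5p: aGUGGGAGaaacgggugucuguc
miR-705: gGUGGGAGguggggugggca
miR-762: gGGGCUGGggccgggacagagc
miR-7648-3p: aGGGCUGGgcccgggacgcgg

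The pairs miR-6993-5p and miR-705, with the seed GUGGGAG, and miR-762 and miR-7648-3p, with the seed GGGCUGG, came from different chromosomes. miR-142a and miR-142b are read from opposite strands of 1 hairpin locus, so reads there cannot be divided between them.

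Member peaks sat elsewhere than most peaks near a start, which follows in part from the rule that chose them. RefSeq placed the RNA at the peak for 176 of the 179 genes, and 2 of these, *Mir22hg* and *Mir99ahg*, are long host transcripts themselves. Of the 179, 135 lay inside a longer gene on the same strand, 98 of them in an intron and 37 in an exon. A further 11 overlapped a longer gene on the opposite strand only, and 30 lay in no longer gene. Among the 26 snoRNA genes, 22 had such a host. For the other 3 genes (*Mir684-1*, *Mir8099-2* and *Snord58b*), RefSeq placed the RNA away from the peak the authors assigned to it. Only 24 of 117 Rpb2 member peaks (20.5%) lay within 250 bp of the start of a protein-coding or long noncoding gene, against 81.6% of all Rpb2 peaks within 1000 bp of a start. For H3K27Ac, these shares were 34.5% of members and 93.9% of all. The authors assigned each peak to the nearest annotated start. The rule therefore tends to leave out peaks at the start of a longer gene, and the lower shares are no separate result. The peak overlapped the annotated RNA in 48 of 117 Rpb2 peaks and in 79 of 113 H3K27Ac peaks, which were wider (median 1289 bp against 285 bp for Rpb2).

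Of the Rpb2 member peaks, 80 of 117 (68.4%) overlapped an H3K27Ac peak, against 98.2% of all Rpb2 peaks near a start. The share was 74.0% for miRNA peaks and 42.9% for the 21 snoRNA peaks. Conversely, 38.9% of H3K27Ac member peaks overlapped an Rpb2 peak, against 71.2% of all. The share on the peak list of 1 genotype alone was 65.8% of members against 44.6% of all for Rpb2, and 46.9% against 22.4% for H3K27Ac. These are shares of peaks with no test, since peaks are not replicates.

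**Figure D1:**
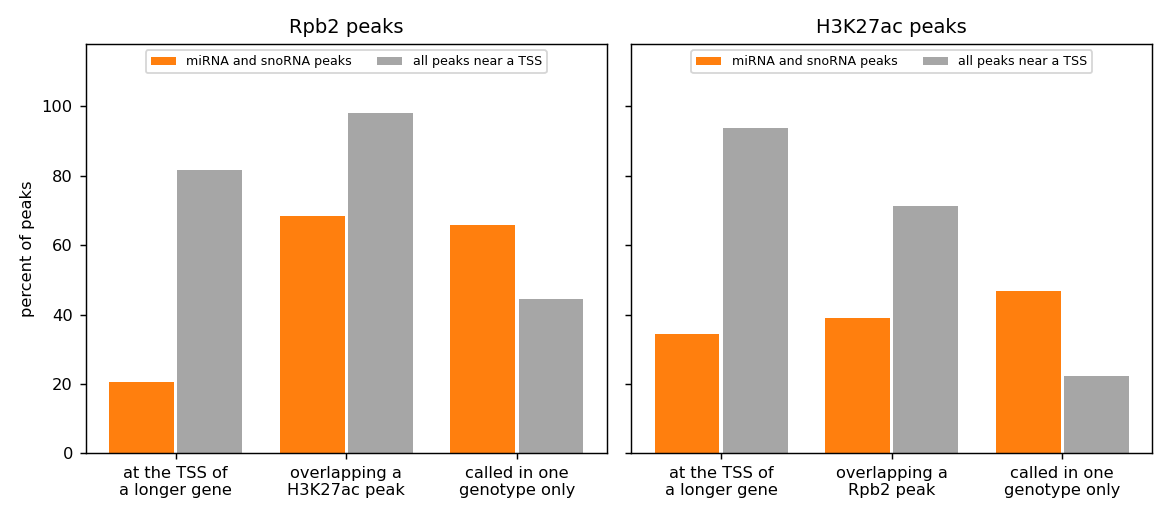
Percent of Rpb2 peaks (left) and H3K27Ac peaks (right) that lay within 250 bp of the start of a longer gene, overlapped a peak of the other signal, or came from the list of 1 genotype alone. Orange bars are miRNA and snoRNA peaks and grey bars all peaks within 1000 bp of a start, and 20.5% of the Rpb2 member peaks lay at the start of a longer gene against 81.6% of all. Peaks were assigned to the nearest start, which in part sets this difference.

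The Rpb2 levels of the members spanned from 6.71 to 1175 CPM (mean of 4 libraries). Their median was 42.8 CPM, against 72.8 CPM for all 10125 peaks near a start, and 80 of 117 lay below the median of those peaks. At the top stood a snoRNA. The *Snord118* peak held 1105 and 1155 CPM in WT pools and 1276 and 1165 CPM in KO pools, where the first value of each pair is the pool labelled female. It ranked 1 of all 10125 peaks by level and 3 per kb of peak width. The other highest snoRNA levels were those of *Snord104*, with 435 and 329 CPM in WT and 424 and 440 CPM in KO, and *Snord17*, an intronic snoRNA of the sorting nexin gene *Snx5*, with 255 and 228 CPM in WT and 360 and 171 CPM in KO. The WT and KO pools overlapped at *Snord104* and *Snord17*, and both KO pools lay just above the WT pools at *Snord118* (log2 fold change 0.11, SE 0.14, edgeR adjusted p = 0.824). *Snora78*, whose peak lay at the start of its host *Snhg9*, held 305 and 208 CPM in WT and 217 and 233 CPM in KO.

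Among miRNA genes, the highest Rpb2 peak was that of *Mir5130*, in an exon of *Kctd12*, with 620 and 639 CPM in WT and 376 and 476 CPM in KO. It was followed by *Mir7086*, in an intron of the interleukin-10 receptor gene *Il10ra*, with 203 and 327 CPM in WT and 349 and 305 CPM in KO. *Mir142*, whose miRNA is abundant in cells of blood origin, held 281 and 186 CPM in WT and 277 and 185 CPM in KO. At the antisense *Mir142b*, 762 bp further on, a smaller peak held 91.2 and 65.6 CPM in WT and 81.6 and 108 CPM in KO. Among the other strong peaks, *Mir5136* held 313 and 334 CPM in WT and 244 and 265 CPM in KO, so that both KO pools were lower (log2 fold change −0.35, SE 0.22, edgeR adjusted p = 0.625), and *Mir7238*, in an exon of *Ankrd10*, held 271 and 248 CPM in WT and 287 and 329 CPM in KO. *Mir484* held 201 and 185 CPM in WT and 247 and 209 CPM in KO. Its 2 KO pools were above both WT pools (log2 fold change 0.25, SE 0.26).

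**Figure D2:**
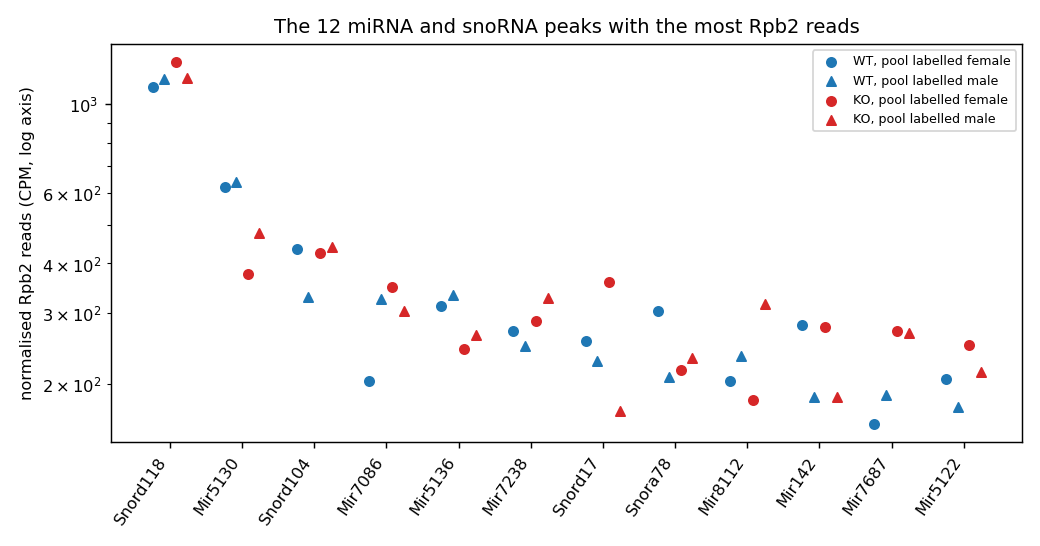
Normalised Rpb2 reads (CPM, log axis) in each of the 4 libraries for the 12 member peaks with the highest mean. Blue symbols are WT and red symbols KO, with circles for pools labelled female and triangles for male, and *Snord118* stood above the others at 1105 to 1276 CPM.

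Other miRNA genes are known from immune cells. *Mirlet7i* had 2 peaks 203 bp apart, and the stronger one held 52.1 and 86.3 CPM in WT and 94.8 and 63.3 CPM in KO. *Mir150*, known from lymphocytes, held at the stronger of its 2 peaks 53.4 and 35.0 CPM in WT and 59.8 and 45.5 CPM in KO. *Mir146*, the gene of miR-146a, which dampens NF-κB signalling, held 10.4 and 6.56 CPM in WT and 22.8 and 27.04 CPM in KO. The KO pools of *Mir146* lay above the WT pools, with a log2 fold change of 1.55 (SE 0.81, edgeR adjusted p = 0.515). For H3K27Ac, the *Mir146* peak held 13.6 and 55.2 CPM in WT and 22.6 and 25.7 CPM in KO. There the pools overlapped and the log2 fold change was −0.53 (SE 0.62). *Mir22hg*, the host of miR-22, held 125 and 198 CPM in WT and 255 and 208 CPM in KO at its start. *Mir155* and *Mir223* had no member peak.

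The H3K27Ac levels of the members spanned from 2.24 to 963 CPM with a median of 26.4 CPM, against 67.1 CPM for all 9904 tested peaks. The domains described next were broad and also covered the start of a host or neighbouring gene. The domain over *Snord17* was 10227 bp wide and held 587 and 1236 CPM in WT and 1026 and 1005 CPM in KO. At *Mir7687*, in an intron of *Gse1*, 589 and 686 CPM in WT were set against 652 and 611 CPM in KO. The domain assigned to *Mir142b* held 375 and 606 CPM in WT and 466 and 428 CPM in KO, and that of *Mir191* held 339 and 362 CPM in WT and 355 and 375 CPM in KO. *Snord35a*, from the ribosomal protein gene *Rpl13a*, held 391 and 511 CPM in WT and 488 and 492 CPM in KO. At *Snord118*, H3K27Ac was 216 and 253 CPM in WT and 202 and 227 CPM in KO, which ranked 899 of all peaks near a start, whereas its Rpb2 peak ranked 1. Over the 32 genes with both signals, the levels of Rpb2 and H3K27Ac had a Spearman correlation of 0.554. This is a description across genes, whose peaks share libraries and differ in width.

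The comparison of genotypes asked whether loss of *Cx3cr1* went with a different Rpb2 signal at these genes. No member passed an adjusted p of 0.05 in edgeR's quasi-likelihood test, and neither did any of the 10125 tested peaks (0%). The lowest adjusted p among members was 0.146. By DESeq2, 20 peaks passed, none of them a member. At an unadjusted p under 0.05, 16 of the 117 members stood apart, of which 7 were higher in KO, against 4.42% of all tested peaks, and 9 were lower, against 6.13% of all. With DESeq2, 15 members had such a p. In 32 members (27.4%) both KO pools were above both WT pools, against 21.7% of all peaks, and in 20 (17.1%) both were below, against 20.4%. The median log2 fold change was 0.15 for the members and 0.02 for all peaks. It was 0.20 for miRNA peaks and −0.05 for snoRNA peaks. Of the members, 59.0% had a fold change above 0, against 51.6% of all peaks, and with reads scaled to library totals these shares were 73.5% and 66.6%. When all peaks of the table were fitted, they were 50.4% and 52.3%, and the medians were 0.019 for members and 0.041 for all peaks. In sorted populations, the share of cells that carry a signal and the signal per cell cannot be told apart.

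The direction of these differences went with the list a peak came from. Of the 9 lower members, 7 were on the WT list alone, and of the 7 higher ones, 5 were on the KO list alone. A peak called in 1 genotype alone was in the table because it was found there, so the counts above are no independent sign of a difference. The median log2 fold change was −0.88 for members on the WT list alone, against −0.71 for all tested peaks on that list. It was 0.54 for members on the KO list alone, against 0.33 for all such peaks. For the 40 members on both lists it was 0.06, against −0.06 for all peaks on both lists.

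**Figure D3:**
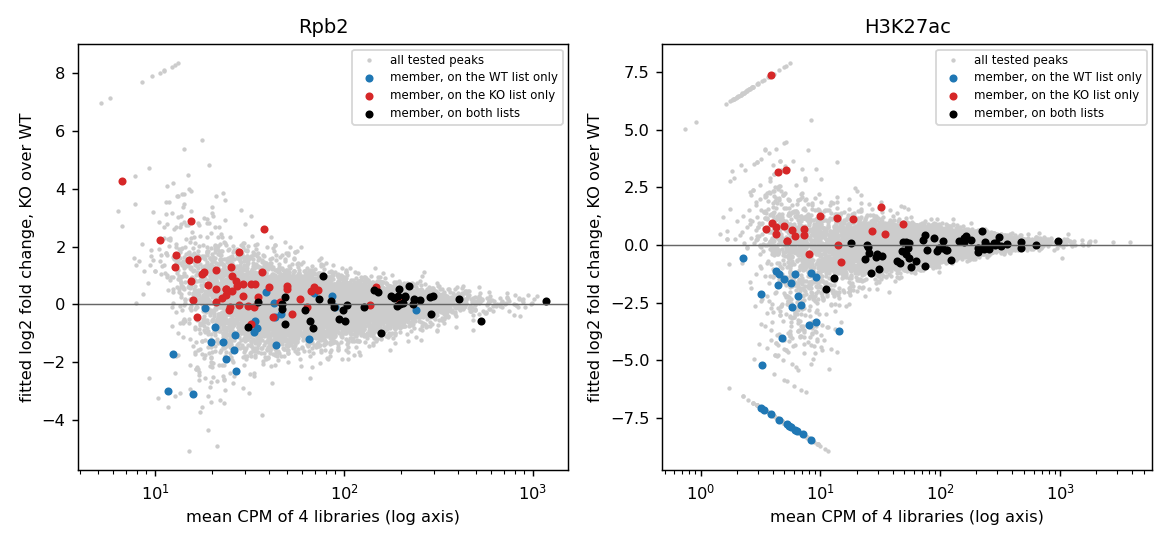
Fitted log2 fold change (KO over WT) against mean CPM on a log axis, for Rpb2 (left) and H3K27Ac (right). Grey points are all tested peaks and coloured points are members on the WT list alone (blue), the KO list alone (red) or both lists (black), and the fitted values of peaks with 0 reads in 1 genotype depend on the prior count. Members on the WT list alone had a median of −0.88 for Rpb2, against −0.71 for all tested peaks on that list.

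There were 4 members on both lists with an unadjusted p under 0.05. At *Mir5130*, given above, Rpb2 was lower in both KO pools (log2 fold change −0.57, SE 0.19, edgeR adjusted p = 0.273). A second *Mir5130* peak 443 bp away held 158 and 102 CPM in WT and 126 and 221 CPM in KO, so that its pools overlapped. *Mir5133*, in an exon of the heparan sulfate epimerase gene *Glce* at whose start its peak lay, held 165 and 252 CPM in WT and 115 and 94.6 CPM in KO. Both KO pools were lower (log2 fold change −0.99, SE 0.31, edgeR adjusted p = 0.258). *Mir7687* was higher in KO, with 159 and 188 CPM in WT and 271 and 268 CPM in KO (log2 fold change 0.63, SE 0.25, edgeR adjusted p = 0.374). The H3K27Ac domain over *Mir7687* had a log2 fold change of −0.01 (SE 0.28). *Mir7091*, in an intron of *Dnase1l1* on the X chromosome, held 46.9 and 55.7 CPM in WT and 102 and 103 CPM in KO (log2 fold change 0.996, SE 0.41, edgeR adjusted p = 0.386). Both WT libraries held Y-linked reads and the KO female library none, and the part of sex in this X-linked value was not tested. For H3K27Ac, the *Mir7091* peak held 67.2 and 39.5 CPM in WT and 33.6 and 32.7 CPM in KO. Its log2 fold change there was −0.68 (SE 0.44).

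The lowest p of all members was that of *Mir8116*, in an intron of the acetylcholinesterase gene *Ache* (peak at chr5:137293511-137293730 of mm10). This peak of the KO list held 7.82 and 13.1 CPM in WT and 63.4 and 66.2 CPM in KO, or 6 and 12 reads against 192 and 93. Its log2 fold change was 2.61 (SE 0.63, edgeR adjusted p = 0.146). The peak at the *Ache* start held 53.4 and 42.6 CPM in WT and 56.2 and 24.9 CPM in KO, and its log2 fold change was −0.22.

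*Snord38a*, a box C/D snoRNA, had 5.21 and 2.19 CPM in WT and 29.4 and 24.9 CPM in KO. The fitted log2 fold change was 2.88 (SE 0.91, edgeR adjusted p = 0.258), and it rests on 4 and 2 WT reads. *Snord38a* was the only one of the 21 snoRNA peaks with an unadjusted p under 0.05.

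The peaks of the miR-15/16 locus, which lies in an intron of the long noncoding RNA *Dleu2*, differed in sign. The *Mir15a* peak, on the WT list, held 56.01 and 33.9 CPM in WT and 13.5 and 3.56 CPM in KO (log2 fold change −2.31, SE 0.77, edgeR adjusted p = 0.272). The *Mir16-1* peak 638 bp away, on the KO list, held 26.1 and 13.1 CPM in WT and 37.0 and 31.3 CPM in KO (edgeR adjusted p = 0.729). Of the other genes with this seed, *Mir497* held 36.5 and 41.5 CPM in WT and 14.9 and 30.6 CPM in KO for Rpb2, and *Mir6353* held 121 and 179 CPM in WT and 158 and 174 CPM in KO for H3K27Ac. Added up, the *Mir15a* and *Mir16-1* peaks held 82.1 and 47.0 CPM in WT and 50.5 and 34.9 CPM in KO, so that the pools overlapped. The *Dleu2* start held 220 and 221 CPM in WT and 168 and 187 CPM in KO, and its log2 fold change was −0.31.

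*Mir6993*, in an intron of the fatty acid desaturase gene *Fads1*, also had 2 peaks of opposite sign. The KO-list peak over the hairpin held 7.82 and 16.4 CPM in WT and 39.0 and 47.7 CPM in KO, whereas the WT-list peak 513 bp away held 30.0 and 27.3 CPM in WT and 4.62 and 1.42 CPM in KO. Added up, the 2 peaks held 37.8 and 43.7 CPM in WT and 43.6 and 49.1 CPM in KO. Among members, 6 adjacent pairs joined a WT-list and a KO-list peak, and in 4 of them the former was lower and the latter higher in KO, against 149 of 213 such pairs (70.0%) among all Rpb2 peaks near a start.

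The other members with an unadjusted p under 0.05 were mostly on 1 list alone and at low levels. *Mir5129*, in an exon of the transcription factor gene *Zeb2*, held 22.1 and 19.7 CPM in WT and 3.30 and 1.42 CPM in KO. *Mir3074-2*, which lies antisense to miR-24 in the miR-23a/27a/24 cluster, held 32.6 and 42.6 CPM in WT and 11.2 and 8.54 CPM in KO, whereas the neighbouring *Mir23a* peak held 59.9 and 71.0 CPM in WT and 47.9 and 68.3 CPM in KO. *Mir8110*, 19611 bp from the start of the microglial transcription factor gene *Sall1*, held 67.7 and 115 CPM in WT and 46.2 and 33.4 CPM in KO. A second *Mir8110* peak 139 bp away, on the KO list, had a log2 fold change of 0.45, and added up the 2 peaks held 125 and 172 CPM in WT and 138 and 96.8 CPM in KO, which overlapped. *Mir7654* and *Mir7213* were also lower, with log2 fold changes of −1.40 and −1.58. *Mir6975*, in an intron of the RNA helicase gene *Ddx39b*, held 0 and 1 reads in the WT pools and 37 and 19 in the KO pools, and *Mir6910*, in *Ptbp1*, held 6.51 and 1.09 CPM in WT and 19.2 and 15.7 CPM in KO. Of the 16 members, 12 had a host gene whose own start carried an Rpb2 peak, and none of these 12 starts had an unadjusted p under 0.05. Among all tested Rpb2 peaks 10.6% had such a p, and 12 starts are too few to be set apart from that share.

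**Figure D4:**
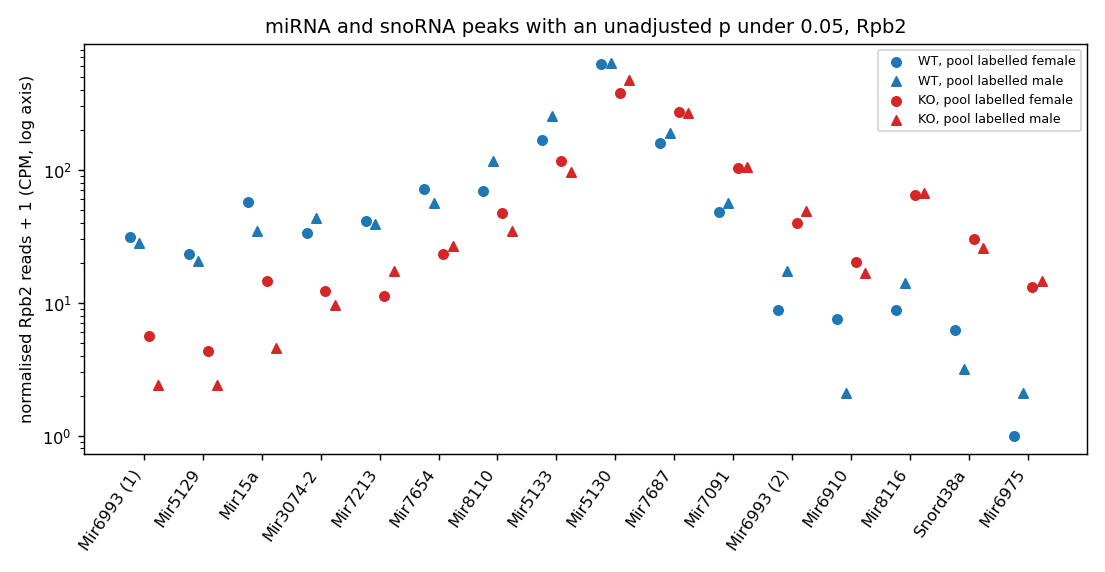
Normalised Rpb2 reads plus 1 (CPM, log axis) in each library for the 16 member peaks with an unadjusted p under 0.05, ordered by fold change from lower in KO (left) to higher (right). Blue is WT and red KO, circles are pools labelled female and triangles male, and the 2 peaks of *Mir6993* are numbered. The WT and KO pools did not overlap in any of the 16. Since the peaks were chosen by a p from these same pools, this is no added support.

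Without the library labelled WT female, 3 members were called (*Mir5133*, *Snord2* and *Mir8108*), and for the last 2 the remaining WT library held 0 reads. That fit called 237 of all 10125 peaks, and 14.0% of all had an unadjusted p under 0.05, against 24 of the 117 members. Without the WT male library, *Mir8116* was the one member among 105 peaks called. The number of members with an unadjusted p under 0.05 was 9 without the KO female and 8 without the KO male library, against 7.6% and 6.8% of all peaks.

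For H3K27Ac, again 0 members and 0 of the 9904 tested peaks (0%) passed an adjusted p of 0.05, by edgeR and by DESeq2, and the lowest adjusted p was 0.999. At an unadjusted p under 0.05, 3 of 113 members were higher in KO, against 1.62% of all peaks, and 6 were lower, against 2.26%. Both KO pools were above both WT pools in 12 members (10.6%, against 16.4% of all) and below in 20 (17.7%, against 15.2%). The median log2 fold change was −0.14 for members and −0.00358 for all peaks. With the 12 members that had 0 reads in 1 genotype set to the bound that 3 reads over that genotype allow, the median of the members was −0.14 as well. A bound on the same side of the median as the fitted value cannot move it, so this is no added support. Of the members, 38.1% had a fold change above 0, against 49.7% of all peaks. With reads scaled to library totals the median over all peaks moved to 0.79, and 71.7% of members and 91.5% of all peaks were above 0, so the differences below are relative to the bulk of the peaks.

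Of these 9 members, 4 were on both lists. At *Mir8095*, in an intron of the diacylglycerol kinase gene *Dgkg*, H3K27Ac was 92.7 and 103 CPM in WT and 48.6 and 56.3 CPM in KO, lower by a log2 fold change of −0.90 (SE 0.33, edgeR adjusted p = 0.999). *Mir762*, on the strand opposite to *Bcl7c*, whose start its peak covered, held 74.5 and 77.3 CPM in WT and 32.4 and 45.4 CPM in KO (log2 fold change −0.96, SE 0.38, edgeR adjusted p = 0.999). *Mir7648*, which shares its seed, held 47.2 and 29.0 CPM in WT and 25.3 and 28.9 CPM in KO. *Mir7672*, in an exon at the start of the mitochondrial RNA nuclease gene *Pde12*, held 173 and 130 CPM in WT and 100 and 92.5 CPM in KO, and its log2 fold change of −0.65 turned to 0.26 with library totals. *Mir6398*, on the strand opposite to the cytoskeletal linker gene *Macf1*, was higher, with 154 and 199 CPM in WT and 299 and 239 CPM in KO.

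On the KO list alone, *Snord11* had the lowest p of the H3K27Ac members. This box C/D snoRNA lies in an intron of *Nop58*, which encodes a core protein of box C/D particles. Its peak held 10.9 and 19.7 CPM in WT and 37.8 and 59.5 CPM in KO (log2 fold change 1.64, SE 0.55, edgeR adjusted p = 0.999). At the start of *Nop58*, H3K27Ac was 77.2 and 76.1 CPM in WT and 65.2 and 63.3 CPM in KO. *Mir7240*, whose peak covered the start of *Mast3* on the other strand, held 35.4 and 32.5 CPM in WT and 60.6 and 65.2 CPM in KO.

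Most members of the WT list alone rested on few reads of 1 library. The 29 members of that list had a median of 19 WT female reads and of 0 in each of the other 3 libraries, and 10 of the 29 had no read outside that library. Across all H3K27Ac peaks near a start, 1.52% had reads in that library alone. The pattern was not particular to the members. All 512 tested peaks on the WT list alone had medians of 18.2 CPM (WT female), 0 (WT male), 0.245 (KO female) and 0 (KO male). For the members of that list, these medians were 17.3, 0, 0 and 0 CPM. *Mir6901*, in *Sned1*, had 37 WT female reads and 0 in the other 3 libraries, and *Mir9-3*, a brain miRNA gene, had 28 and 0. *Mir705* had 25 reads and *Mir2139* had 24, again with 0 elsewhere. *Mir30c-1* held 28 and 5 reads in the WT pools and 0 in both KO pools. In all, 22 of the 29 were highest in the WT female library. *Mir7015* was not, its WT pools holding 4 and 85 reads and its KO pools 16 and 0. The WT female library also had the lowest share of reads in peaks (15.9%), and the part of that difference in these peaks was not tested. On the KO list, *Mir701* had 0 reads in both WT pools and 19 and 40 in KO.

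**Figure D5:**
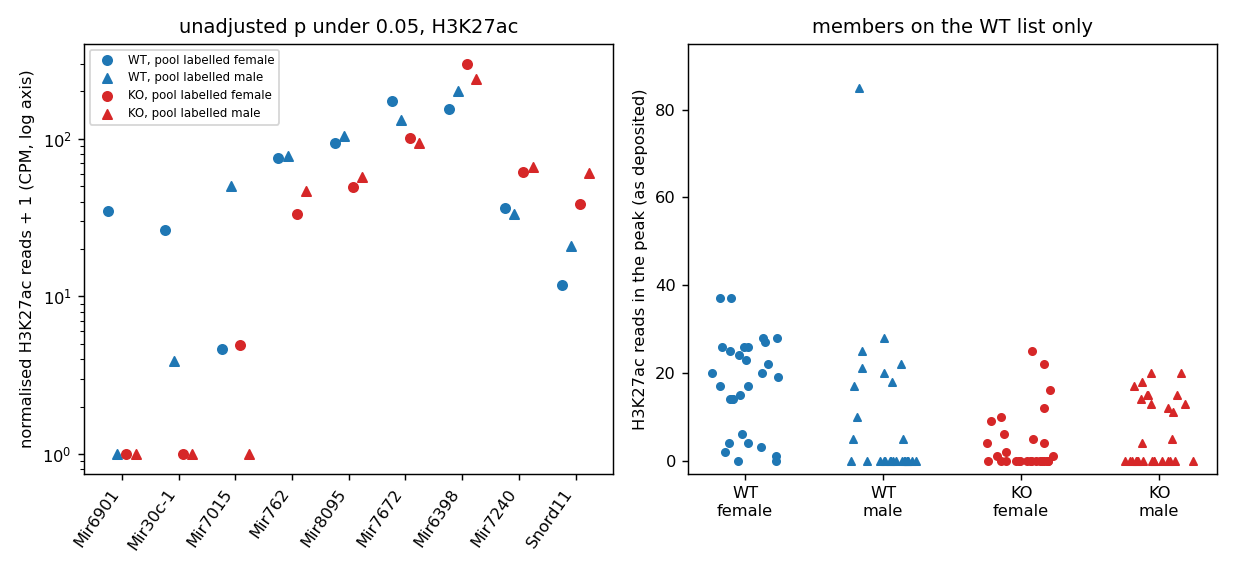
Left, normalised H3K27Ac reads plus 1 (CPM, log axis) in each library for the 9 member peaks with an unadjusted p under 0.05, ordered by fold change. Right, deposited reads in the 29 members on the WT list alone, 1 point per peak and library, whose median was 19 for the WT female pool and 0 for each other pool; blue is WT and red KO, circles are pools labelled female and triangles male.

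Without the WT male library, 4 H3K27Ac members were called (*Snord17*, *Mir6398*, *Mir6904* and *Mir6901*) and 28 of 113 had an unadjusted p under 0.05. That fit called 297 of 9893 peaks, and 18.3% of all had such a p. Without the WT female library, 18 members had such a p, against 14.2% of all peaks, and none was among the 30 peaks called. Leaving out either KO library left 3 such members, against 1.24% (KO female) and 0.861% (KO male) of all peaks.

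The machinery of both RNA classes was examined at gene starts. Of 23 genes of miRNA processing, 15 had a tested Rpb2 peak, and none had an unadjusted p under 0.05. The Rpb2 peak of *Dicer1* held 78.2 and 73.2 CPM in WT and 68.1 and 46.3 CPM in KO. That of *Tarbp2* went the other way, with 113 and 63.4 CPM in WT and 129 and 164 CPM in KO. The median log2 fold change of the 15 was −0.35, against 0.02 for all tested Rpb2 peaks. Added up, the 15 peaks held 2369 and 2389 CPM in WT and 2522 and 2230 CPM in KO, so that the pools overlapped. Of 23 symbols of snoRNP proteins and assembly factors, where *Nhp2l1* and *Snu13* name the same gene, 14 were tested. Only *Nop10*, of the H/ACA particle, had an unadjusted p under 0.05 (62.5 and 61.2 CPM in WT, 100 and 127 CPM in KO, edgeR adjusted p = 0.426). Of 70 snoRNA host genes, 60 were tested, with 3 higher and 2 lower at an unadjusted p under 0.05 and a median of 0.02. Of 50 symbols of miRNA host genes, where *C9orf3* and *Aopep* name the same gene, 28 were tested. At such a p, 1 was higher and 2 were lower, and the median was −0.0054. Over all tested Rpb2 peaks, 10.6% had such a p. For H3K27Ac, the 4 lists had 16, 19, 55 and 29 tested genes in the same order, and 0, 0, 1 and 2 of them had an unadjusted p under 0.05, against 3.88% of all peaks. No gene of the 4 lists had an adjusted p under 0.05 for either signal.

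Of 926 Rpb2 peaks assigned to these genes at any distance, the last inside the limit was that of *Mir8099-2* at 997 bp, whose WT pools held 28 and 41 reads and whose KO pools held 171 and 86. RefSeq places *Mir8099-2* on another chromosome than this peak. The first outside was that of *Mir202* at 1037 bp, whose WT pools held 18 and 26 reads and whose KO pools 117 and 20. For H3K27Ac, 1817 peaks were assigned to such genes. *Mir6769b* at 992 bp was inside, its WT pools holding 7 and 18 reads and its KO pools 47 and 100, and *Mir6968* at 1007 bp was outside, its WT pools holding 20 and 0 reads and its KO pools 5 and 0.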

How the data were processed

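Per the labels and the study's methods, the authors aligned single-end reads of 51 nt with Bowtie 2 (mm10), used those that mapped uniquely, and found peaks with HOMER that were reproducible between replicates. The deposited tables give raw counts of reads in each merged peak, 1 table for each signal. Of the 12 samples, 4 inputs were not used here.

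Peaks within 1000 bp of an annotated start whose reads averaged 4 or more in WT or KO pools were fitted in each table with edgeR 4.0.16 in R 4.3.3 (glmQLFit, glmQLFTest, TMM factors, genotype alone, Benjamini-Hochberg adjustment over all tested peaks). All members passed this filter. The SE of a fold change was worked back from the test, as the absolute fold change over the square root of its F statistic. It therefore holds no information beyond the fold change and its p. Where a genotype held no reads, this SE depends on the prior count, as the fold change does. The fit was tested on simulated data. Intervals for single pools were not computed, and 2 pools of different mice per genotype limit the precision. Over all tested peaks, pools labelled with one sex did not deviate together (correlation −0.000468 for Rpb2 and 0.0362 for H3K27Ac). This does not decide whether sex matters at single or sex-linked peaks. For Rpb2, the WT female label also went against the Y-linked reads of its library.

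Small RNAs were placed with RefSeq GRCm38.p6, and hosts and gene starts with GENCODE M21. In each table the rule named up to 10 members with the lowest unadjusted p under 0.05 whose pools did not overlap, the 12 with the highest level, the 12 strongest with both signals, and a list of immune, brain and housekeeping small RNAs. Other members, such as *Mir701*, *Mir7648*, *Mir6904*, *Mir8108*, *Snord2* and the rest of those with an unadjusted p under 0.05, were chosen after their values were seen. The values at the host of 1 member are not reported here. Members and lists were chosen with earlier results of these data known.

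Alternatives were RLE factors, loess offsets, library totals, DESeq2 1.42.0, no filter, 10 reads in every library, all peaks, sex as a replicate block, and each pool left out. The sums of adjacent peaks were added after seeing the data.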

Additional observations from a re-analysis of the deposited data

Results flagged for a closer look

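There were 5 H3K27Ac members with ratios of KO over WT that were opposite and beyond 2-fold in the pools labelled female and male, with at least 20 reads in 1 library. The difference between the sexes was not tested, since each ratio rests on 1 pool per genotype. The log2 ratios (prior count of 2) were −3.70 in the female and 4.29 in the male pools at *Mir1931*, −5.51 and 2.41 at *Mir6918*, −3.04 and 3.87 at *Mir7683*, −1.99 and 2.83 at *Snord95*, and −4.61 and 2.50 at *Mir421*. At all 5, the WT male library was at 0 reads. In the same order, these peaks held 10, 37, 6, 26 and 26 WT female reads.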

How the results depend on the processing

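With RLE factors, loess offsets or no filter, the numbers of members with an unadjusted p under 0.05 stayed within 1.5 times of those reported and no member was called. Scaled to library totals, the median log2 fold change over all tested peaks shifted to 0.22 for Rpb2 and 0.79 for H3K27Ac, and that of the members was 0.31 and 0.61. The H3K27Ac members with an unadjusted p under 0.05 then numbered 4, and the log2 fold changes that changed sign by more than 1 SE were *Mir142b* 0.50, *Mir1938* 0.77, *Mir484* 0.42, *Mir5103* 0.63, *Mir5133* 0.82, *Mir688* 0.75, *Mir7655* 0.61, *Mir7672* 0.26, *Mir7687* 0.73, *Mir8096* 0.38, *Snord104* 0.55, *Snord118* 0.60. With 10 reads in every library, 86 Rpb2 and 65 H3K27Ac members were tested, 10 and 5 had an unadjusted p under 0.05, and the Rpb2 median was 0.067. With all peaks of the table the Rpb2 median was 0.019 (0.041 over all peaks), and DESeq2 gave 17 H3K27Ac members with an unadjusted p under 0.05. With sex as a replicate block, 14 Rpb2 and 6 H3K27Ac members had such a p and 0 were called, although 24 Rpb2 peaks of the whole table were.

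With each pool left out, the members called numbered 0 to 3 for Rpb2 and 0 to 4 for H3K27Ac, those with an unadjusted p under 0.05 8 to 24 and 3 to 28, and the medians were 0.035 to 0.23 and −0.23 to −0.015. The lone pool was assumed to vary like the others. Log2 fold changes that changed sign by more than 1 SE ranged, for Rpb2, over *Mir142* −0.32 to 0.32, *Snora78* −0.44 to 0.11, *Mir688* −0.29 to 0.25, *Snord17* −0.49 to 0.57, *Mir8112* −0.27 to 0.54, and for H3K27Ac over *Snord17* −0.29 to 0.79, *Snord49b* −0.26 to 0.50, *Mir142b* −0.45 to 0.25, *Mir146* −1.20 to 0.82, *Mir150* −3.13 to 4.84, *Mir1905* −0.21 to 1.02, *Mir484* −0.55 to 0.27, *Mir8096* −0.59 to 0.38, *Snord104* −0.37 to 0.20. Over all alternatives, 28 of 400 values of named Rpb2 members and 42 of 378 of H3K27Ac members changed sign, and 23 and 21 of these changes were within 1 SE and are not listed. Where no value above shows the cause, the cause was not tested.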
